A study of Homo sapiens with 4 samples.

Results

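The genes described here are components of the RAS-ERK and PI3K-mTOR pathways, measured in Kelly, an established cell line from a human neuroblastoma that carries MYCN amplification and a mutant, active ALK receptor. A list of 41 symbols was looked up in the platform's annotation, and 35 had a probe set that named that gene alone, of 18244 genes represented in all. FRS2, RASA1, NRAS, BRAF, PIK3CA and PIK3R2 were not analysed here. The 35 formed an adaptor group of 7 genes, a RAS-ERK group of 10 and a PI3K-mTOR group of 18. Each gene was represented by its brightest probe set over the 4 arrays. KSR1, a scaffold of the RAF kinases, lay under the filter on low values, with intensities of 39.8 and 51.7 with shBORIS and 38.3 and 38.7 with shLUC, so 34 genes were tested. All 34 were above the filter's intensity of 62.2 on all 4 arrays, the lowest value being 64.1.

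The cells of both groups had become resistant to the ALK inhibitor TAE684 and were kept in 1 µM of the drug. They received for 24 h a virus with a hairpin against BORIS, the protein of CTCFL (shBORIS), or a control hairpin to luciferase (shLUC), and were then selected in puromycin for 48 h. Each group held 2 arrays, which the labels call biological duplicates of the resistant cells; no parental cells and no other BORIS hairpin were analysed here. The comparison asks what lower BORIS does to transcript levels in ALK-inhibitor-resistant cells. CTCFL itself had intensities of 701 and 737 with shBORIS and 3563 and 3376 with shLUC, 4.74-fold lower. ALK, the receptor upstream of these pathways and the target of the drug, had intensities of 240.1 and 284 with shBORIS and 88.3 and 84.6 with shLUC, 2.70-fold higher as deposited, and 1.94-fold higher once the shift of the median gene, described below, is taken off.

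Activated receptor tyrosine kinases such as ALK recruit adaptor proteins, which bring exchange factors to RAS. RAS loaded with GTP activates the RAF kinases, which phosphorylate the MEK kinases and through them the ERK kinases. In parallel PI3K makes a membrane lipid that activates AKT, which releases RHEB from the TSC complex and so switches on mTOR, the kinase that sets the rate of protein synthesis and cell growth. Both pathways lie downstream of ALK in neuroblastoma. They are controlled largely by phosphorylation, which arrays of transcripts do not measure.

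The scale of the arrays matters for every gene below. As deposited the log2 difference of the median gene between shBORIS and shLUC was 0.48, and 77.2% of the 10946 genes tested were higher and 4.64% lower at an adjusted p under 0.05 (limma). Each difference is therefore given on 2 scales: as deposited, and centred, which means after subtraction of the array's own median, so that 0 is the median gene. On the centred scale 30.3% of genes were higher and 28.8% lower. The difference also varied with brightness: the median gene of the dimmest decile had a centred difference of -0.17 and that of the ninth decile 0.15. Of the neuroblastoma markers, 10 of 11 were on the array, and all 10 exceeded the filter on every array, with summed intensities of 24085 and 24996 with shBORIS and 18152 and 17398 with shLUC. Single markers went both ways: after centring 3 of the 10 were higher and 6 lower (median -0.16), and CHGA, with means of 6255 and 2133, made up much of the difference in the sum. Of the markers of other cell types with a probe set, 1 of 6 Schwann and glial, 2 of 7 fibroblast, 1 of 4 endothelial and 1 of 5 immune genes exceeded the filter on every array. In bulk RNA of this kind, fewer cells of a type and less RNA per cell cannot be told apart.

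The upstream sequences of the 2 genes with the largest rises after centring, RPS6KB1 and SOS1, and of the 2 with the largest falls, EIF4EBP2 and MAPK3, are shown because these genes stood at the ends of the response. Each run gives the 250 bases before the RefSeq start site (GRCh38.p14), 5′ to 3′ on the gene's strand. Capitals mark matches to the motifs searched.
RPS6KB1 (chr17:59892871-59893120, + strand): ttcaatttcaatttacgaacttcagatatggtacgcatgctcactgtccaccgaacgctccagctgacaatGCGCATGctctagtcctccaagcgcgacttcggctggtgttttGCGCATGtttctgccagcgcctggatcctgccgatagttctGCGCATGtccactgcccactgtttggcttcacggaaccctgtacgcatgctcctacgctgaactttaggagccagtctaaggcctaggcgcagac
SOS1 (chr2:39124869-39125118, - strand): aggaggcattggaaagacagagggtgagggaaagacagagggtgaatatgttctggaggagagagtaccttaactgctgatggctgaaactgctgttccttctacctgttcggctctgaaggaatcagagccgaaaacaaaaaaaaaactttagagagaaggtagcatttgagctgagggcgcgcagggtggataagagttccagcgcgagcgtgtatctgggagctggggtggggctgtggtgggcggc
EIF4EBP2 (chr10:70403895-70404144, + strand): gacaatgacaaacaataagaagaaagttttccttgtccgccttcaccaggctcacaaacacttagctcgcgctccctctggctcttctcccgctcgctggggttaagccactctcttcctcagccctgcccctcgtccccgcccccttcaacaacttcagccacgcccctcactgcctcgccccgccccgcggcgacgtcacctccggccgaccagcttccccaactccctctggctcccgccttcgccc
MAPK3 (chr16:30123221-30123470, - strand): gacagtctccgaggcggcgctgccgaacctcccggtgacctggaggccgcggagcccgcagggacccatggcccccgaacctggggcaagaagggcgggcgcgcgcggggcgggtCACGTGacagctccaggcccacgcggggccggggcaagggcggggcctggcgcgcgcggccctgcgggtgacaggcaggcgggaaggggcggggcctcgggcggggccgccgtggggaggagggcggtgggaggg
The RPS6KB1 and SOS1 runs had a GC content of 54% and 52.4%, against 63.2% for EIF4EBP2 and 80.4% for MAPK3. The median was 69.2% over the 32 pathway genes with an entry and 57.6% over all 27305 promoters. The 12 genes called higher and 11 called lower after centring had medians of 66.8% and 71.2%. On both strands, the E-box CACGTG, which MYC proteins bind, was found in MAPK3 and TSC2, 6.25% of the pathway genes against 6.46% of all promoters. The ETS string CCGGAAGT was found in SHC1 and TSC2, against 3.64% of all promoters. The core of the CTCF motif was found in 0 of 32 against 1.62%, and the FOXO string GTAAACA in 0 of 32 against 3.01%. The string GCGCATG, part of the NRF1 motif and searched only after the sequences were read, was found in GRB2, NF1 and RPS6KB1, 9.38% against 3.97% of all promoters. It occurred 3 times in RPS6KB1, a number reached by 0.183% of all promoters. None of these strings overlapped another within the runs shown. These matches describe letters in a window and not bound sites.

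On the deposited scale 27 of the 34 genes rose and 1 fell, against the 77.2% and 4.64% of all genes. On the centred scale 13 rose and 11 fell, or 38.2% and 32.4%, against 30.3% and 28.8% of all genes tested. The counts of calls thus lay near those of the array as a whole. As deposited both shBORIS arrays lay above both shLUC arrays for 28 genes and below for 1, against 83.8% and 6.65% of all genes. After centring they lay above for 13 and below for 14, against 40.4% and 39%. The median of the 34 was 0.44 as deposited, against 0.48 for all genes, and -0.04 after centring. The adaptor group had 3 rises and 1 fall among 7 genes, with a median of 0.02. The RAS-ERK group had 2 rises and 4 falls among 9 (median -0.11), and the PI3K-mTOR group had 8 rises and 6 falls among 18 (median -0.001). As deposited the medians were 0.50, 0.37 and 0.48 in that order. The groups hold few genes and no test was made between them. With duplicates the smallest two-sided p of an exact permutation test is 0.333, and the adjusted p-values below, limma's, rest on a spread pooled over all genes.

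**Figure D1:**
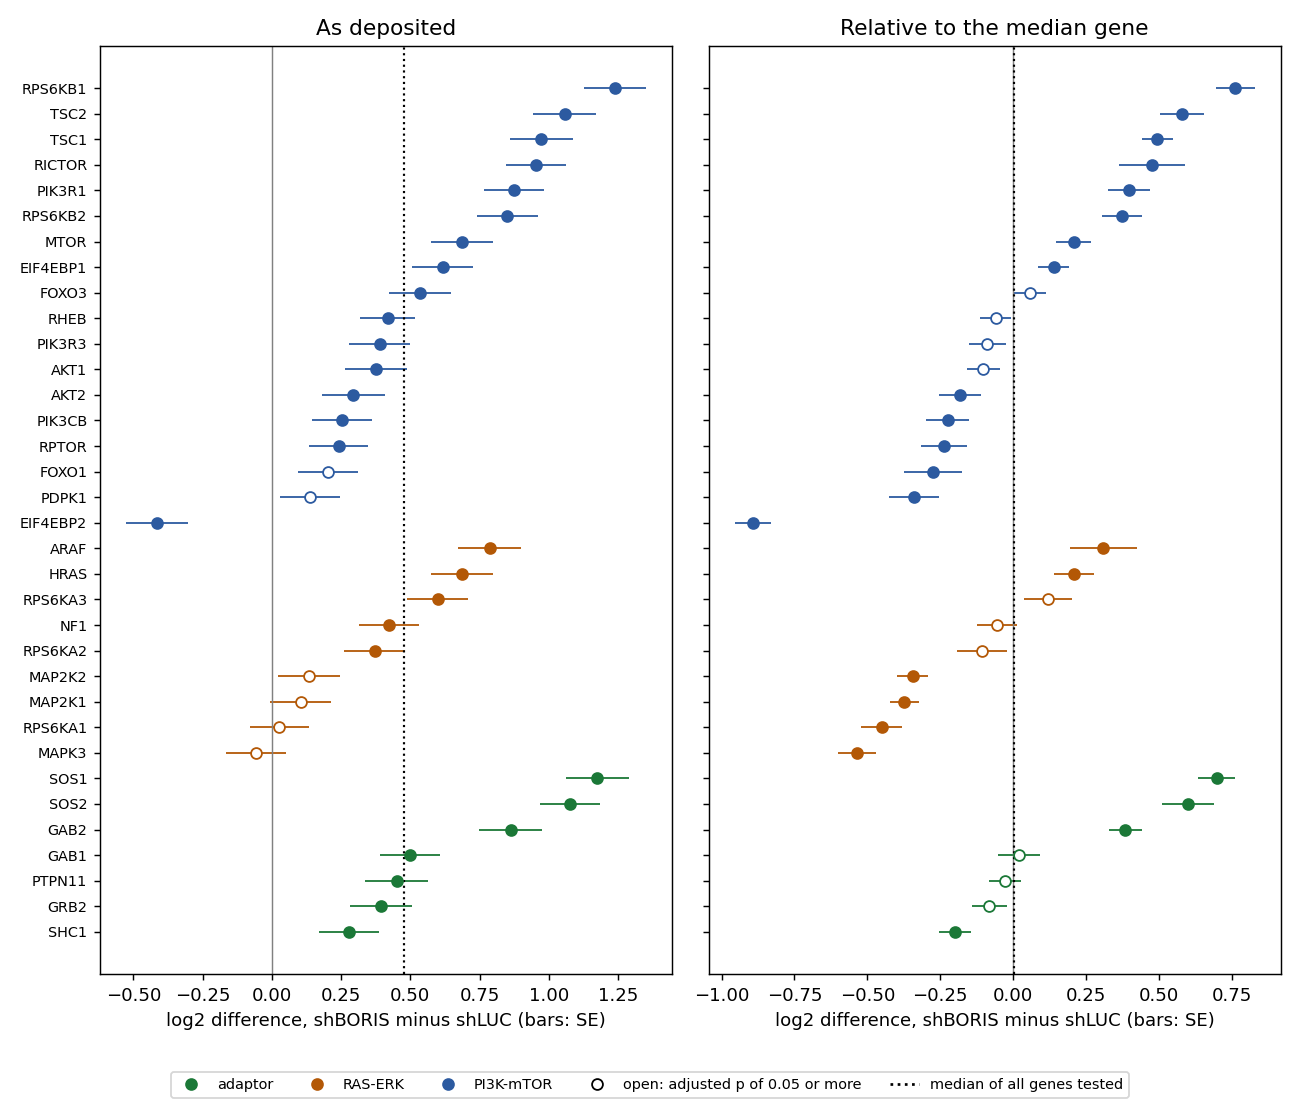
Log2 difference between shBORIS and shLUC for the 34 genes tested, as deposited (left) and centred on the median gene (right), with standard errors from limma (2 arrays a group). Filled points passed an adjusted p of 0.05 and the dotted line is the median of all genes tested. On the left 27 genes are higher and 1 lower; on the right 13 are higher and 11 lower, and 4 genes (SHC1, PIK3CB, AKT2 and RPTOR) are higher on the left and lower on the right, as were 6.29% of all genes tested.

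At the top of the pathway, both RAS exchange factors rose. SOS1, which loads RAS with GTP once an adaptor has carried it to the membrane, had intensities of 918 and 1026 with shBORIS and 460.3 and 385 with shLUC. The arrays of the groups did not overlap, and the difference was 2.26-fold as deposited and 1.62-fold after centring (log2 0.70, SE 0.06; limma adjusted p = 1.22e-05). All 4 SOS1 probe sets passed in the same direction, at 0.22 to 0.70. SOS2, its paralog, had 175 and 166 with shBORIS and 81.3 and 64.1 with shLUC, also without overlap. Its rise was 2.11-fold as deposited and 1.52-fold after centring (log2 0.60, SE 0.09; limma adjusted p = 2.73e-04). The other SOS2 probe sets were under the filter.

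The adaptors themselves moved less evenly. GAB2, a docking protein that carries PI3K and a phosphatase to receptors, had intensities of 901 and 999.7 with shBORIS and 549 and 483 with shLUC. It rose by 0.38 after centring (SE 0.06; limma adjusted p = 2.31e-04), but its dimmer probe set, under the filter, read -0.38, and the mean of both read 0.04 (adjusted p = 0.471). GAB1, its paralog, was higher as deposited at 0.50 and read 0.02 after centring (adjusted p = 0.825). SHC1, which links phosphorylated receptors to GRB2, had 1605 and 1695 with shBORIS and 1355 and 1361 with shLUC. It was thus higher on both shBORIS arrays by 0.28 as deposited, and lower by 0.20 after centring (limma adjusted p = 0.0093). That centred fall was not called without shLUC replicate 2 (adjusted p = 0.0506), and the mean of its probe sets read 0.04 (adjusted p = 0.567). GRB2, the adaptor that binds SOS proteins, and PTPN11, the phosphatase SHP2 that sustains RAS activation, were higher as deposited, at 0.40 and 0.45. On the centred scale they read -0.08 and -0.03 and did not pass (adjusted p = 0.263 and 0.695). The mean of the PTPN11 probe sets read -0.27 on that scale (limma adjusted p = 0.00228), but only 1 of the 4 was above the filter.

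**Figure D2:**
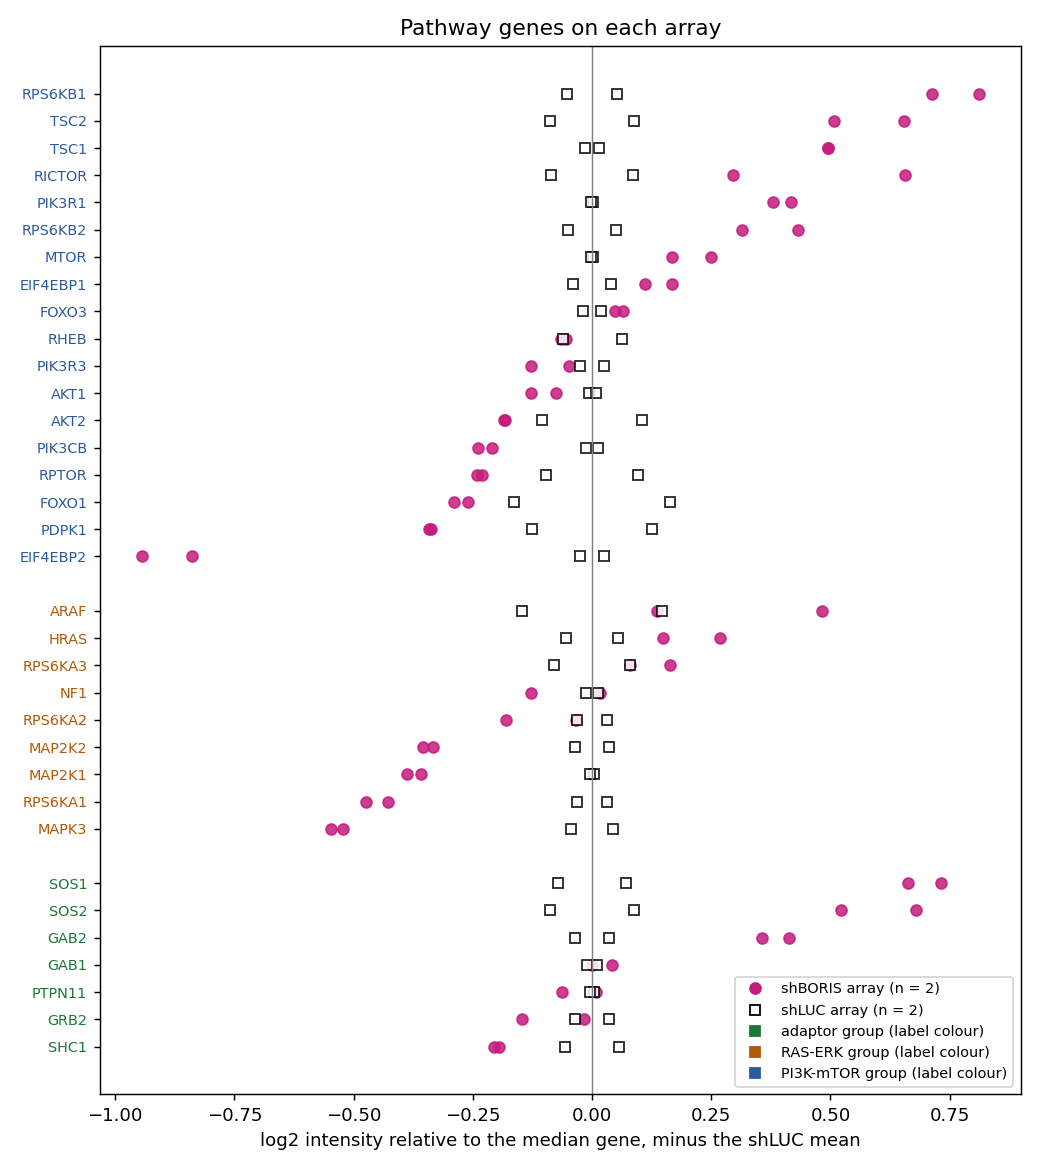
Log2 intensity of each gene centred on the array's median gene, minus the mean of the shLUC arrays, for each of the 2 shBORIS arrays (filled circles) and the 2 shLUC arrays (open squares), by group. SOS1, SOS2, RPS6KB1 and TSC2 lie clear of shLUC on the right, and EIF4EBP2, MAPK3, RPS6KA1, MAP2K1 and MAP2K2 on the left; of those 5 only EIF4EBP2 was also lower as deposited.

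In the RAS-ERK group the kinases of the MEK and ERK tiers and RPS6KA1 fell after centring, while as deposited, where most genes were higher, none of them was called. MAP2K1, a MEK kinase, had intensities of 1211 and 1318 with shBORIS and 1222 and 1128 with shLUC, which overlap (log2 0.10 as deposited; limma adjusted p = 0.373). On the centred scale it fell by 0.37 (SE 0.05; limma adjusted p = 1.28e-04), and its 3 probe sets read -0.46 to -0.35. MAP2K2, the other MEK kinase, had 946 and 994 with shBORIS and 893 and 873 with shLUC, without overlap. The deposited difference was 0.13 (limma adjusted p = 0.262). After centring MAP2K2 fell by 0.34 (SE 0.05; limma adjusted p = 3.38e-04). MAPK3, an ERK kinase, had 239.6 and 260.5 with shBORIS and 262 and 259 with shLUC. It read -0.06 as deposited (limma adjusted p = 0.626), and its centred fall of 0.53 (SE 0.06; adjusted p = 6.66e-05) was the largest of the RAS-ERK group. RPS6KA1, a ribosomal S6 kinase of the RSK family that ERK activates, had 144 and 159.9 with shBORIS and 151 and 146 with shLUC. The deposited difference was 0.03 (limma adjusted p = 0.818). After centring RPS6KA1 fell by 0.45 (SE 0.07; limma adjusted p = 3.42e-04). All 4 of its probe sets were below 0 on that scale, at -0.63 to -0.11. The 4 centred falls of MAP2K1, MAP2K2, MAPK3 and RPS6KA1 remained called without each array in turn, after quantile normalization and with the mean of probe sets. MAP2K2 and MAPK3 had only 1 probe set each, so for them that mean is the same probe set and was no check between probe sets. Against the ERCC spike-ins in place of the median gene, none of the 4 falls was called lower, as on the deposited values.

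The remaining genes of the ERK branch read higher or near the median gene. ARAF, a RAF kinase, had intensities of 587 and 799.6 with shBORIS and 365 and 418 with shLUC, 1.72-fold higher as deposited. On the centred scale its arrays overlapped, and the rise of 0.31 (SE 0.12; limma adjusted p = 0.041) was lost without shBORIS replicate 2 (0.14, adjusted p = 0.259) or shLUC replicate 1 (0.16, adjusted p = 0.224). HRAS, a RAS GTPase, had 408 and 474 with shBORIS and 267 and 268 with shLUC, without overlap. Its centred rise of 0.21 (SE 0.07; limma adjusted p = 0.0231) was likewise lost without shBORIS replicate 2 (adjusted p = 0.159) or shLUC replicate 1 (adjusted p = 0.12). NF1, which switches RAS off, was higher by 0.42 as deposited and read -0.06 after centring (adjusted p = 0.511); 2 of its 4 probe sets above the filter had each sign. The RSK kinases RPS6KA3 and RPS6KA2 were higher as deposited at 0.60 and 0.37 and read 0.12 and -0.11 after centring, neither past the threshold (adjusted p = 0.233 and 0.302).

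In the PI3K-mTOR group the largest rise was that of RPS6KB1, the S6 kinase that mTOR activates and that phosphorylates ribosomal protein S6. Its intensities were 528 and 525 with shBORIS and 231 and 197 with shLUC, so that both shBORIS arrays lay above both controls. The difference was 2.36-fold as deposited and 1.70-fold after centring (log2 0.76, SE 0.07; limma adjusted p = 9.22e-06). Of its 6 probe sets above the filter, 5 passed as rises and all 6 were above 0, from 0.14 to 1.07. Its paralog RPS6KB2 had 408 and 474 with shBORIS and 237 and 236 with shLUC, and rose by 0.37 after centring (SE 0.07; limma adjusted p = 9.58e-04). All 4 RPS6KB2 probe sets were above 0 on that scale, but only 2 passed, and the others read 0.04 and 0.13. MTOR itself had 432 and 488 with shBORIS and 291 and 268 with shLUC. Its rise of 0.21 after centring (SE 0.06; limma adjusted p = 0.013) was lost without shBORIS replicate 2 (adjusted p = 0.101), and the mean of its probe sets, 1 of them under the filter, read -0.02.

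The partners that define the mTOR complexes were called in opposite directions after centring. RICTOR, the subunit of the complex that phosphorylates AKT, had intensities of 202 and 165 with shBORIS and 96.8 and 77.2 with shLUC. It rose by 0.48 after centring (SE 0.11; limma adjusted p = 0.00482). The 3 RICTOR probe sets above the filter each passed. RPTOR, the subunit of the complex that phosphorylates the S6 kinases, had 191 and 206 with shBORIS and 160.3 and 171 with shLUC. It was higher by 0.24 as deposited (adjusted p = 0.0307) and lower by 0.24 after centring (SE 0.08; limma adjusted p = 0.0241). Both calls of RPTOR were lost when single arrays were left out, the centred call without shLUC replicate 2 (-0.14, adjusted p = 0.182) and without shBORIS replicate 1 (adjusted p = 0.0565).

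Both genes of the TSC complex, the brake on RHEB and mTOR, rose. TSC2, which makes RHEB hydrolyse GTP, had intensities of 649 and 768 with shBORIS and 323 and 339 with shLUC. The arrays did not overlap, and the rise was 2.08-fold as deposited and 1.5-fold after centring (log2 0.58, SE 0.08; limma adjusted p = 1.09e-04). The other TSC2 probe set, under the filter, read -0.16 after centring and did not pass. TSC1, which stabilises TSC2, had 939 and 1001 with shBORIS and 499.6 and 473 with shLUC, a centred rise of 0.49 (SE 0.05; limma adjusted p = 3.23e-05). Its other probe sets above the filter read -0.03 and -0.14 and did not pass, and the mean of all 4 read 0.07 (adjusted p = 0.269), so the TSC1 call rests on the brightest. RHEB, the GTPase they act on, was the brightest of the pathway genes at 2946 and 3161 with shBORIS and 2469.7 and 2104 with shLUC. RHEB was higher by 0.42 as deposited and read -0.06 after centring (adjusted p = 0.361). Its 4 probe sets read -0.06, -0.02, 0.09 and -0.44 after centring, in order of brightness. Only the dimmest passed, as a fall (limma adjusted p = 2.43e-04).

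EIF4EBP2, a repressor that holds the cap-binding factor of translation until mTOR phosphorylates it, had the largest fall. Its intensities were 295 and 339.6 with shBORIS and 436 and 419 with shLUC, so that both shBORIS arrays were below both controls. It was lower by 1.33-fold as deposited and by 1.86-fold after centring (log2 -0.89, SE 0.06; limma adjusted p = 2.80e-06). It alone of the 34 genes was called lower as deposited. All 5 EIF4EBP2 probe sets were below 0 after centring, at -0.89 to -0.11, and 4 passed. As deposited they read -0.41, 0.19, -0.15, 0.37 and 0.14 in order of brightness, and their mean read 0.03 (adjusted p = 0.786), so the call as deposited rests on the choice of the brightest. Its paralog EIF4EBP1, with the same role, had 1440.3 and 1596 with shBORIS and 991 and 975 with shLUC. EIF4EBP1 was higher by 0.62 as deposited and by 0.14 after centring (SE 0.05; limma adjusted p = 0.0462), a call lost without shBORIS replicate 1 (adjusted p = 0.0751), shBORIS replicate 2 (0.243) or shLUC replicate 1 (0.19).

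Between PI3K and mTOR the kinases read lower than the median gene. PDPK1, which phosphorylates AKT at its activation loop, had intensities of 201 and 214 with shBORIS and 214 and 164 with shLUC, which overlap as deposited. It fell by 0.34 after centring (SE 0.08; limma adjusted p = 0.00612), but its other 4 probe sets above the filter read -0.10 to 0.07 and none of them passed, and the mean of all 6 read -0.07 (adjusted p = 0.270). AKT2 was higher by 0.29 as deposited and lower by 0.18 after centring (limma adjusted p = 0.0494); that call was lost without shBORIS replicate 1 (adjusted p = 0.0899), shBORIS replicate 2 (0.0948) or shLUC replicate 2 (0.373), although all 10 AKT2 probe sets above the filter were below 0. AKT1 read 0.38 as deposited and -0.10 after centring (adjusted p = 0.156). PIK3CB, a catalytic subunit of PI3K, was higher by 0.25 as deposited and lower by 0.22 after centring (adjusted p = 0.024), a call lost without any 1 of the 4 arrays (adjusted p = 0.0552 to 0.0917). PIK3R1, the main regulatory subunit, had 165 and 181 with shBORIS and 90.8 and 83.0 with shLUC, and rose by 0.40 after centring (SE 0.07; limma adjusted p = 8.97e-04). Its probe sets disagreed: the 2 brightest read 0.40 and 0.41, while the third above the filter passed as a fall at -0.28, and the mean of all 8 read -0.01. PIK3R3 was higher by 0.39 as deposited and read -0.09 after centring (adjusted p = 0.249).

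The forkhead factors FOXO1 and FOXO3, which AKT keeps out of the nucleus, were the last genes of the group. FOXO1 had intensities of 148 and 155 with shBORIS and 153 and 109 with shLUC, which overlap. It read 0.20 as deposited (limma adjusted p = 0.0713) and -0.28 after centring (SE 0.10; limma adjusted p = 0.0378), a call lost without shBORIS replicate 2 (adjusted p = 0.0644) or shLUC replicate 1 (-0.11, adjusted p = 0.327). FOXO3 was higher by 0.53 as deposited and read 0.06 after centring (adjusted p = 0.407). A further 5 probe sets that name FOXO3 together with its near-identical copy FOXO3B were not used, and FOXO3 is uncertain for that reason.

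**Figure D3:**
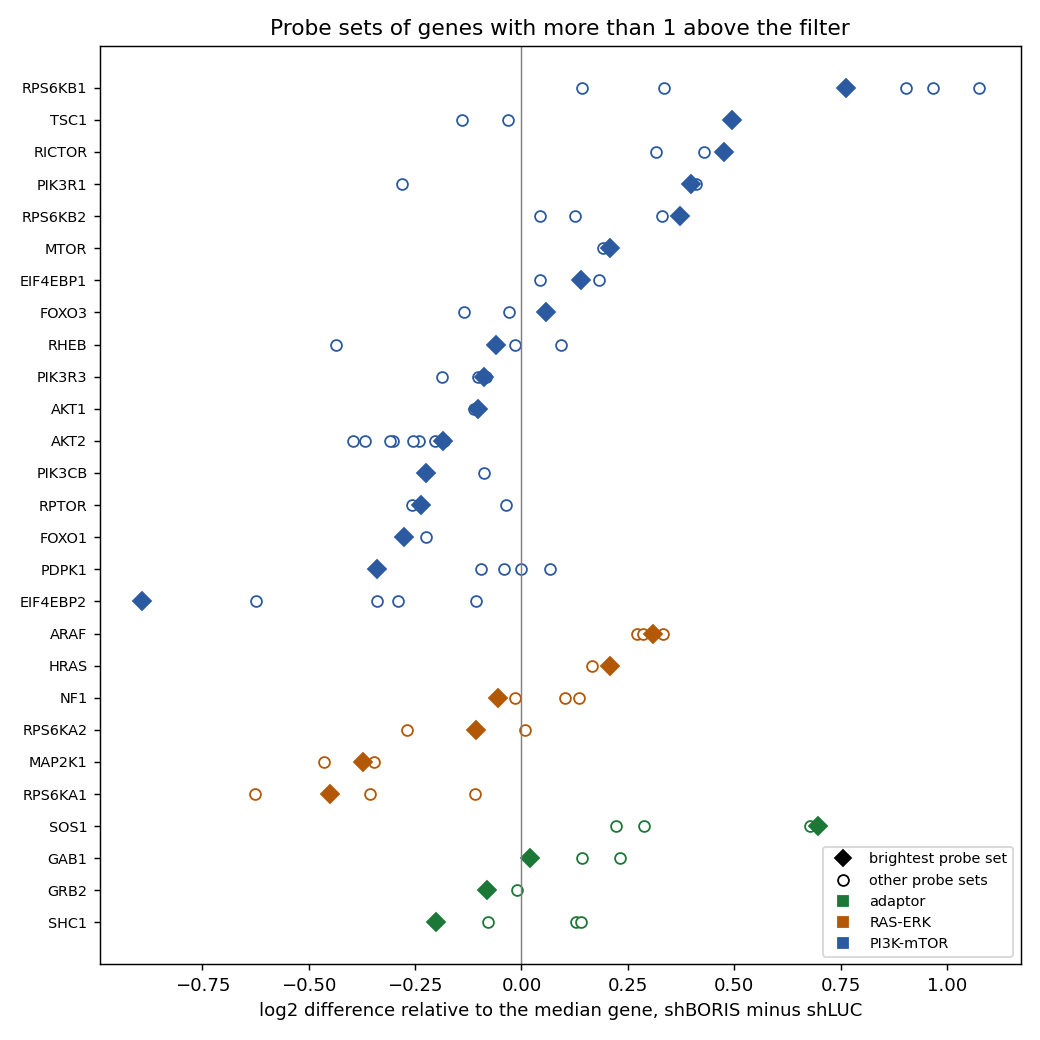
Centred log2 difference for every probe set above the filter, for the 27 genes with more than 1. Diamonds are the brightest probe set, which represents the gene, and circles the others. For 19 of the 27 all probe sets share a sign on this scale. The others, SHC1, NF1, RPS6KA2, PIK3R1, PDPK1, TSC1, RHEB and FOXO3, have probe sets on both sides of 0.

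On the centred scale, 11 calls held without each array in turn, after quantile normalization and with the mean of probe sets. They were the rises of SOS1, SOS2, TSC2, RICTOR, RPS6KB1 and RPS6KB2 and the falls of MAP2K1, MAP2K2, MAPK3, RPS6KA1 and EIF4EBP2. For MAP2K2 and MAPK3, with 1 probe set each, the mean of probe sets was no check between probe sets. SOS2 and TSC2 had 1 probe set each above the filter, and for them that mean took in dimmer ones. The 6 rises were also higher as deposited under each of these settings. Of the 27 rises as deposited, those of SHC1, PIK3CB, AKT2 and RPTOR were lost without shBORIS replicate 2 (adjusted p = 0.0862, 0.186, 0.126 and 0.186). SHC1, AKT2 and RPTOR were also lost without shLUC replicate 1, and SHC1 and PIK3CB without shLUC replicate 2. Of the 5 falls, EIF4EBP2 was lower as deposited, and the other 4 were not called there. With the mean of probe sets some of these differences were much smaller: SOS2 read 0.31 in place of 0.60, TSC2 0.25 in place of 0.58, RICTOR 0.18 in place of 0.48 and EIF4EBP2 -0.41 in place of -0.89.

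By role, 5 of the genes tested inhibit their pathway. As deposited 4 of them were higher and 1 lower; after centring 3 rose (TSC1, TSC2 and EIF4EBP1), 1 fell (EIF4EBP2) and NF1 did not pass. Of the 3 rises only that of TSC2 held under all the settings above, and TSC2 had only 1 probe set above the filter. The rise of TSC1 was lost with the mean of probe sets, and that of EIF4EBP1 when arrays were left out. Of 14 kinases 9 were higher and 0 lower as deposited (median 0.33), and 4 rose and 7 fell after centring (median -0.15). The shares of all genes were 77.2% and 4.64% as deposited and 30.3% and 28.8% after centring, and with so few genes by role nothing is read from the counts.

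A ratio of 2 genes within an array does not depend on the scale of the array, other than through the small constant added before taking logs, and shows unequal change between them. Of 12 pairs of related genes, the shBORIS arrays lay above both shLUC arrays in 6, below in 2 and among them in 4. The exact permutation p was 0.333, the smallest possible, for each of the 8, so these are descriptions. The largest shift was in EIF4EBP1 over EIF4EBP2, whose log2 ratio was 2.23 and 2.18 with shBORIS and 1.16 and 1.19 with shLUC, a difference of 1.03, and 0.57 with the mean of probe sets. RICTOR over RPTOR read 0.07 and -0.30 with shBORIS and -0.64 and -1.01 with shLUC, a difference of 0.71, and 0.44 with the mean of probe sets. RPS6KA3 over RPS6KA1 shifted by 0.57 (0.30 with the mean of probe sets), PIK3R1 over PIK3R3 by 0.49 (0.10) and RPS6KA3 over RPS6KA2 by 0.23 (0.079). RPS6KB1 over RPS6KB2 shifted by 0.39 and kept that size with the mean of probe sets (0.38). GAB1 over GAB2 shifted by -0.36 (-0.14 with the mean of probe sets) and FOXO1 over FOXO3 by -0.33 (-0.30). In SOS1 over SOS2, AKT1 over AKT2, MAP2K1 over MAP2K2 and TSC1 over TSC2 the arrays overlapped, with differences of 0.10, 0.08, -0.03 and -0.09.

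**Figure D4:**
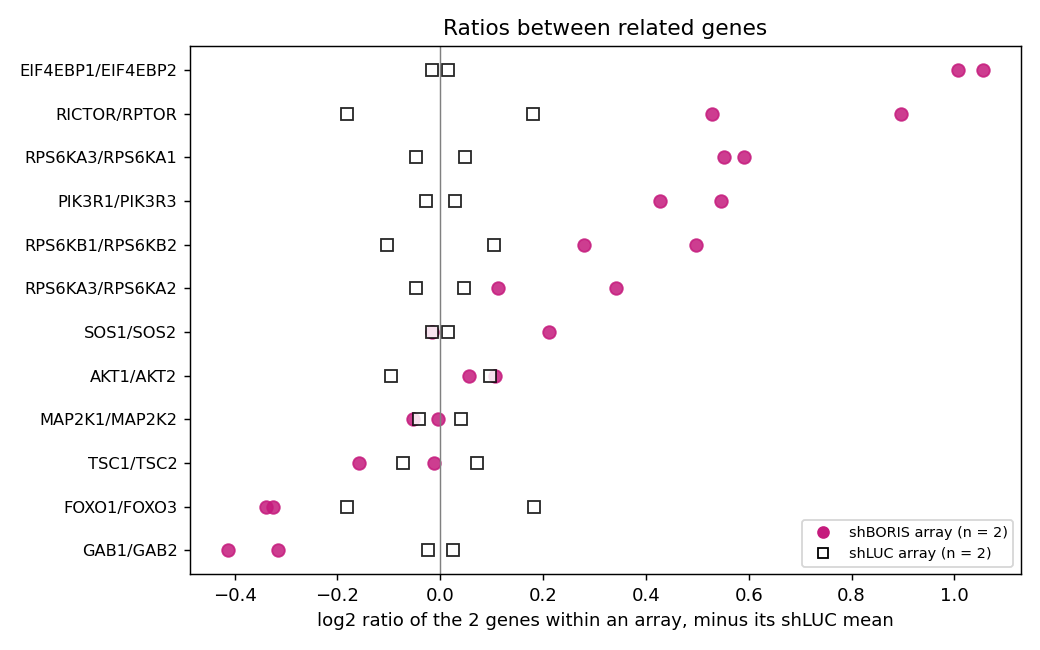
Log2 ratio of the 2 named genes within each array, minus the mean of the shLUC arrays, for 12 pairs. Filled circles are the 2 shBORIS arrays and open squares the 2 shLUC arrays. EIF4EBP1 over EIF4EBP2 stands farthest to the right at 1.03, and 4 pairs overlap.

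Other genes of the same pathways, listed by their role, also went both ways. The counts below stand beside 30.3% of all genes tested higher and 28.8% lower after centring. As deposited those shares were 77.2% and 4.64%, and no test was made of these lists. Of 14 other adaptors tested, 6 rose and 6 fell after centring, while 9 were higher and 3 lower as deposited. The docking protein DOK4 rose by 0.60 and the ubiquitin ligase CBLB by 0.37, and the insulin receptor substrates IRS1 and IRS2 fell by 0.83 and 0.77 and were also lower as deposited (-0.35 and -0.29). Of 13 other genes of the RAS-ERK branch, 6 rose and 2 fell after centring; as deposited 11 were higher and 1 lower. The scaffold IQGAP1 and the GTPase RIT1 rose by 0.55 and 0.47, and the RAS relatives MRAS and RRAS fell by 0.77 and 0.50, with RRAS at -0.02 as deposited. Of 43 other genes of the PI3K-mTOR branch, 10 rose and 15 fell after centring; as deposited 31 were higher and 3 lower. AKT1S1, an inhibitory subunit of the raptor complex, rose by 0.66. The AKT phosphatase PHLPP2 was called at 0.52, with intensities of 122 and 132 with shBORIS and 66.0 and 46.4 with shLUC; its shLUC mean of 56.2 lay under the filter, which it passed through the shBORIS arrays. DEPTOR, an inhibitor of mTOR, and SESN1, which restrains mTOR when amino acids are scarce, fell by 0.94 and 0.80, and both were lower as deposited (-0.46 and -0.33).

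**Figure D5:**
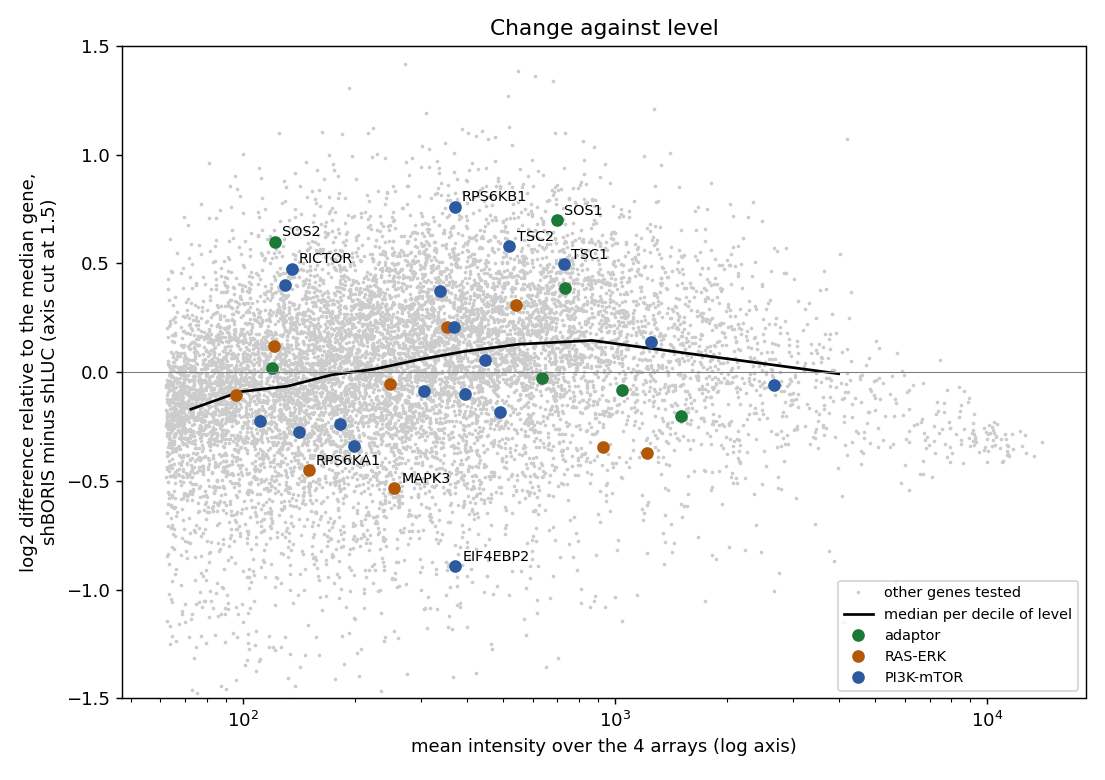
Centred log2 difference against mean intensity over the 4 arrays (log axis) for all genes tested, with the pathway genes in colour and the median of each decile of brightness as a line. The axis is cut at 1.5, which leaves 43 genes outside. The pathway genes run from mean intensities of 95.6 to 2670.0 and lie on both sides of the line, with EIF4EBP2 lowest at -0.89 and RPS6KB1 highest at 0.76.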

How the data were processed

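Total RNA with ERCC spike-ins was labelled with biotin (100 ng per sample) and hybridised to Affymetrix PrimeView arrays, per the labels' protocols. The authors deposited linear intensities per probe set. The submitters' processing notes list MAS5, affy and R 3.1.3 without saying what each did, and the scaling between arrays is unstated in the sources used here. ERCC probe sets had medians of 24.4 to 25.8 on the 4 arrays, against 60.4 to 84.5 for all cellular probe sets. The 202 control probe sets, 1333 with several symbols and 2682 without a symbol were left out, and 45278 with 1 symbol were used.

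Each gene's probe set with the highest mean represented it, and genes under the 40th percentile of that mean (intensity 62.2) were left out, which left 10946. Values were log2(intensity + 16), which understates changes of dim genes. limma 3.58.1 in R 4.3.3 fitted the hairpin as the only term, with an intensity trend, over all genes, as deposited and after each array's median was subtracted. P-values were 2-sided with Benjamini-Hochberg adjustment over the 10946 genes; they measure the spread between duplicates, and their number limits the precision. As deposited the prior had infinite degrees of freedom. Every deposited p-value thus rests wholly on the spread pooled over genes and not on that of the gene's own duplicates. After centring the prior had 7.94 degrees of freedom. Other probe sets were tested in the same model over all cellular probe sets. The script was tested on simulated data. No values were identical between duplicates.

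The genes and lists were chosen with earlier results of these data known. Up to 4 rises and 4 falls past the threshold per group were given on every array, as were some other genes, and the 2 largest of each direction from the other lists. Sequences are RefSeq's (GRCh38.p14); 32 of 35 genes had an entry. Alternatives were another pseudocount, filter, probe set summary, normalization, prior and block, and leaving out each array.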

Additional observations from a re-analysis of the deposited data

How the results depend on the processing

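The duplicates and a single hairpin limit every value, and brightness over background limits dim genes such as SOS2. The counts of calls in this section stand without the share of all genes called under the same setting. Nothing about the pathway genes is read from them. The fit with the replicate number as a block called 23 genes higher as deposited (without SHC1, PIK3CB, AKT2 and RPTOR) and the same 13 higher and 11 lower after centring. Deviations of same-numbered arrays correlated at 0.0979, and the labels give the number no meaning.

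Leaving out each array gave, as deposited, 23 to 27 genes higher and 1 lower in each case, with medians of 0.39 to 0.52 for all, 0.43 to 0.56 for adaptors, 0.30 to 0.39 for RAS-ERK and 0.43 to 0.55 for PI3K-mTOR genes. After centring it gave 9 to 13 higher and 7 to 9 lower, with medians of -0.038 to -0.0049 for all, 2.52e-05 to 0.041 for adaptors, -0.18 to -0.074 for RAS-ERK and -0.0024 to 0.021 for PI3K-mTOR genes.

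Quantile normalization, which sets all arrays to 1 distribution, called 10 genes higher and 10 lower, with medians of -0.025 for all, 0.12 for adaptors, -0.051 for RAS-ERK and -0.025 for PI3K-mTOR genes. Against the deposited scale it turned SHC1 (-0.26), GRB2 (-0.20), PTPN11 (-0.14), NF1 (-0.051), MAP2K1 (-0.47), MAP2K2 (-0.45), RPS6KA1 (-0.39), PIK3CB (-0.12), PIK3R3 (-0.13), AKT1 (-0.16), AKT2 (-0.26), PDPK1 (-0.31), RHEB (-0.044), RPTOR (-0.20) and FOXO3 (-0.0055). Centring on the ERCC spike-ins called 26 higher and 1 lower, with medians of 0.40, 0.46, 0.33 and 0.44 in the same order. Against centring on the median gene it turned SHC1 (0.24), GRB2 (0.36), PTPN11 (0.41), NF1 (0.38), MAP2K1 (0.068), MAP2K2 (0.10), RPS6KA2 (0.33), PIK3CB (0.22), PIK3R3 (0.35), AKT1 (0.34), AKT2 (0.26), PDPK1 (0.10), RHEB (0.38), RPTOR (0.20) and FOXO1 (0.17). The genes that quantile normalization turned were also below 0 after centring on the median gene, other than FOXO3, which read 0.06 there. The cause of the turns was not tested.

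The mean of probe sets called 0 genes lower as deposited (EIF4EBP2 at 0.027), with a PI3K-mTOR median of 0.40 as deposited and -0.040 after centring, and turned the centred values of SHC1 (0.039), PIK3R1 (-0.0068) and MTOR (-0.017). With no filter 6 genes were lower after centring, with medians of 0.059 for all, 0.14 for adaptors and 0.11 for PI3K-mTOR genes, and a RAS-ERK median of 0.27 as deposited. A filter at the 60th percentile left 6 higher after centring and medians of -0.13, -0.10, -0.27 and -0.0714 in the order above, with fewer genes tested. With a pseudocount of 64 the RAS-ERK median was 0.26 as deposited, and the centred medians were -0.010 for all and 0.042 for PI3K-mTOR genes. The cause of the other shifts was not tested. Over all alternatives, single genes kept their call in 390 cases as deposited and 353 after centring, lost the call in 22 and 49, gained one in 4 and 12 and turned in 16 and 18.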

Other observations

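Transcripts known to respond to these pathways went both ways. Of 13 tested genes of ERK output, 5 rose and 6 fell after centring (median 0.06), and 7 were higher and 1 lower as deposited. The shares of all genes tested, higher and lower, were 30.3% and 28.8% after centring and 77.2% and 4.64% as deposited. Cyclin D (CCND1) rose by 0.95 after centring. Its mean intensity was 709 with shLUC and 1941 with shBORIS, a log2 difference of 1.43 as deposited. The immediate early factor EGR1, among the 5, had intensities of 232 and 236 with shBORIS and 40.87 and 40.95 with shLUC. Both shLUC values lay under the filter, which EGR1 passed through the shBORIS arrays, so its fitted difference of 1.66 is not a measured fold. The ERK phosphatase DUSP5 fell by 0.79 and was lower as deposited (-0.31), and the feedback inhibitor SPRY4 fell by 0.44 but read 0.04 as deposited; DUSP5 lay under the filter on 1 array and SPRY4 on 2.

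Of 11 tested targets of FOXO factors, 3 rose and 5 fell after centring (median -0.06), and 6 were higher and 4 lower as deposited (median 0.41). TXNIP rose by 3.21 and the cyclin-dependent kinase inhibitor CDKN1B by 0.72, while the repressor BCL6 and the stress gene GADD45A fell by 1.08 and 1.05 and were also lower as deposited (-0.60 and -0.58). Of 13 genes of amino acid, lipid and glucose metabolism that mTOR is known to drive through ATF4 and SREBP factors, 3 rose and 8 fell after centring (median -0.31), and 6 were higher and 1 lower as deposited (median 0.17). Of all genes tested, 30.3% were higher and 28.8% lower after centring, and 77.2% and 4.64% as deposited. The desaturase SCD fell by 0.70, from a mean intensity of 2579 to 2199.9. The lipid regulator SREBF2 fell by 0.48 after centring and read -0.0038 as deposited. Fatty acid synthase (FASN) and the serine synthesis enzyme PSAT1 rose by 0.27 and 0.26. Several of these genes respond to other signals as well, and no test was made of the lists.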
